A study of Homo sapiens with 42 samples.

Results

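The genes described here are 9 members of the TGF-β and BMP signalling system: the TGF-β ligands TGFB1, TGFB2 and TGFB3, the BMP ligands BMP2, BMP4 and BMP6, the secreted BMP antagonist GREM1, the intracellular inhibitor SMAD7 and the TGF-β-induced matrix protein TGFBI. They were chosen by name, for their place in the pathway, with earlier results of these data known, and are 9 of the 28266 gene symbols in the count table. Counts of members called therefore describe these genes and are no test of the pathway. All 9 passed the filter on low counts in every fit.

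Sequencing of poly(A) RNA gave 42 libraries of IMR90 human lung fibroblasts, an established strain that came from 1 donor, so all groups share a genetic background. IMR90 ER:RAS cells (18 libraries, 3 per group) carry a retroviral fusion of oncogenic HRAS with the oestrogen receptor. They received DMSO or 100 nM 4-hydroxytamoxifen (4OHT), which activates the fusion and leads to oncogene-induced senescence (OIS). IMR90 cells without the fusion (24 libraries, 4 per group) received DMSO or 50 µg/ml bleomycin for 24 h, a DNA-damaging drug that leads to therapy-induced senescence. The cells were then kept for 7 days before 1 µg/ml doxycycline was added for 72 h, and RNA was taken at day 10. In every group doxycycline induced an shRNA: a control hairpin or 1 of the 2 hairpins that target COPB2, which encodes a subunit of the COPI coat of Golgi vesicles. The induction of the oncogene is thus compared within a line that carries the fusion in its DMSO controls too. The labels do not say whether libraries of a group came from separate cultures, so p-values measure the spread between these libraries only. For its gene set analysis of COPB2 knockdown the study describes n = 3 as independent experiments, in both models. Here the bleomycin groups hold 4 libraries, and which 3 were meant is not stated.

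TGF-β and BMP ligands are secreted dimers that bind pairs of type I and type II serine/threonine kinase receptors. TGF-β receptors phosphorylate SMAD2 and SMAD3, BMP receptors phosphorylate SMAD1, SMAD5 and SMAD9, and both groups join SMAD4 to reach the nucleus. TGF-β is released in a latent complex, arrests many cell types and drives matrix production in fibroblasts, and it has been described as part of the secretory phenotype that spreads senescence to neighbouring cells.

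Depth and the labels were checked across all libraries. Total counts ran from 13148194 to 23597310 per library. Levels are given as CPM, counts per 1e6 after TMM scaling of the library sizes. The 14 control-shRNA libraries held 267 to 620 CPM of COPB2, and the 28 libraries with a COPB2 shRNA held 33.9 to 122 CPM. HRAS was at 2573 to 6785 CPM in ER:RAS libraries and at 23 to 175 CPM in IMR90 libraries. Of 12 proliferation genes, 12 fell in OIS, and 10 fell and 1 (PCNA) rose with bleomycin. Their summed level, with the control shRNA, was 231 to 272 CPM with DMSO and 88.1 to 112 CPM with 4OHT, but 145 to 180 CPM with DMSO and 168 to 190 CPM with bleomycin. Fibroblast markers summed to 8246 CPM or more in every library, although 7 of 10 fell in OIS and 8 of 10 with bleomycin. The 8 epithelial markers together stayed at or under 2.62 CPM. The 7 leukocyte markers summed to 12.6 to 44.2 CPM with DMSO and to 55.2 to 121 CPM in senescent libraries, nearly all of it from the lysosomal CD68, while PTPRC, the pan-leukocyte marker, stayed at or under 1.96 CPM. The 6 endothelial markers summed to 74.5 to 125 CPM in the 9 libraries with 4OHT and 1.68 to 5.32 CPM in the others. Of these genes CLDN5 reached 74.9 CPM, TIE1 53.9 CPM and VWF 10.2 CPM. PECAM1, CDH5 and KDR stayed at or under 2.91, 3.10 and 0.846 CPM. The part of these shifts in the results that follow was not tested, and in bulk RNA fewer cells of a type and less RNA per cell cannot be told apart.

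The 3 TGF-β isoforms are encoded on separate chromosomes. In RefSeq on GRCh38.p14, TGFB1 lies on chromosome 19 from 41330323 to 41353922, TGFB2 on chromosome 1 from 218345336 to 218444619 and TGFB3 on chromosome 14 from 75958097 to 75983011. BMP2 lies on chromosome 20 from 6767686 to 6780246, BMP4 on chromosome 14 from 53949736 to 53956891 and BMP6 on chromosome 6 from 7726099 to 7881728. GREM1 lies on chromosome 15 from 32718004 to 32745106, SMAD7 on chromosome 18 from 48919853 to 48950965 and TGFBI on chromosome 5 from 136028988 to 136063818. In GENCODE, exons on the opposite strand overlap those of TGFB1 (HNRNPUL1), TGFB2 (TGFB2-AS1), TGFB3 (TGFB3-AS1), BMP4 (an unnamed transcript), BMP6 (TXNDC5) and GREM1 (GREM1-AS1), and TGFB2-OT1 overlaps TGFB2 on its own strand. The libraries kept strand, but the counting mode is not stated, so reads of these overlaps may be shared or lost.

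The 250 bases before the annotated start of the 3 TGF-β isoforms and of BMP4 are shown because these genes moved in different directions in OIS. The sequences are from RefSeq (GRCh38.p14), read 5′ to 3′ on the strand of the gene, from the entry listed first where a gene has several. For BMP4 that entry is an alternative start, and its window lies inside the gene as placed above. They cover chr19:41353923-41354172 (minus strand), chr1:218345086-218345335 (plus), chr14:75983012-75983261 (minus) and chr14:53955051-53955300 (minus). Capitals mark GC boxes (GGGCGG) and TATA boxes (TATAAA) on either strand.
TGFB1: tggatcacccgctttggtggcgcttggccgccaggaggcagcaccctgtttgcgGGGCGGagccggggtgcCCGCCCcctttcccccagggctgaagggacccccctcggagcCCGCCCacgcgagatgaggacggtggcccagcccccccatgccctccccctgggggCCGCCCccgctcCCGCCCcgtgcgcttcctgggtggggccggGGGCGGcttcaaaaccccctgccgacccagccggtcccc
TGFB2: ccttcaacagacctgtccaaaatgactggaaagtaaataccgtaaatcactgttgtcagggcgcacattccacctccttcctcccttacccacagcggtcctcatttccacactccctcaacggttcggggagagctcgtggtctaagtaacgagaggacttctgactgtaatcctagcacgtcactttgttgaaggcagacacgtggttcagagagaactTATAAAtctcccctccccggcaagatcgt
TGFB3: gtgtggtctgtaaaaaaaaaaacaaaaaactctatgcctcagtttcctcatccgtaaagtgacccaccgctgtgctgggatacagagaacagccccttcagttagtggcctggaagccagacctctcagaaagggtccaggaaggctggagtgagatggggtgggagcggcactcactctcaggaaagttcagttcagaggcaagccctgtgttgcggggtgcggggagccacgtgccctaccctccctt
BMP4: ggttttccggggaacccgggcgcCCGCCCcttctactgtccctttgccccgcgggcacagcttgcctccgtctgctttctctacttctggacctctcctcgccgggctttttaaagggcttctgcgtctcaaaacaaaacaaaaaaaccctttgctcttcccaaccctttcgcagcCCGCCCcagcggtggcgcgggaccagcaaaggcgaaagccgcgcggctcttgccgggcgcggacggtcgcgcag
TGFB1 held 6 GC boxes, at a GC content of 76.8%, and no TATA box. TGFB2 held a TATA box 29 bases before its start and no GC box. TGFB3 held neither, and BMP4 held 2 GC boxes. A GC box was found in 42.3% and a TATA box in 11.1% of the 27305 windows of the same length, 1 per gene. The AP-1 word TGANTCA (6.60% of windows) and the CRE word TGACGTCA (1.77%) were searched on both strands as well and had no match in any of the 8 members with an entry. The SMAD word CAGAC (37.8%) matched 2 times each in TGFB2, TGFB3, GREM1 and SMAD7 and 1 time in BMP4. No searched word contains another. BMP2 has no entry.

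**Figure D1:**
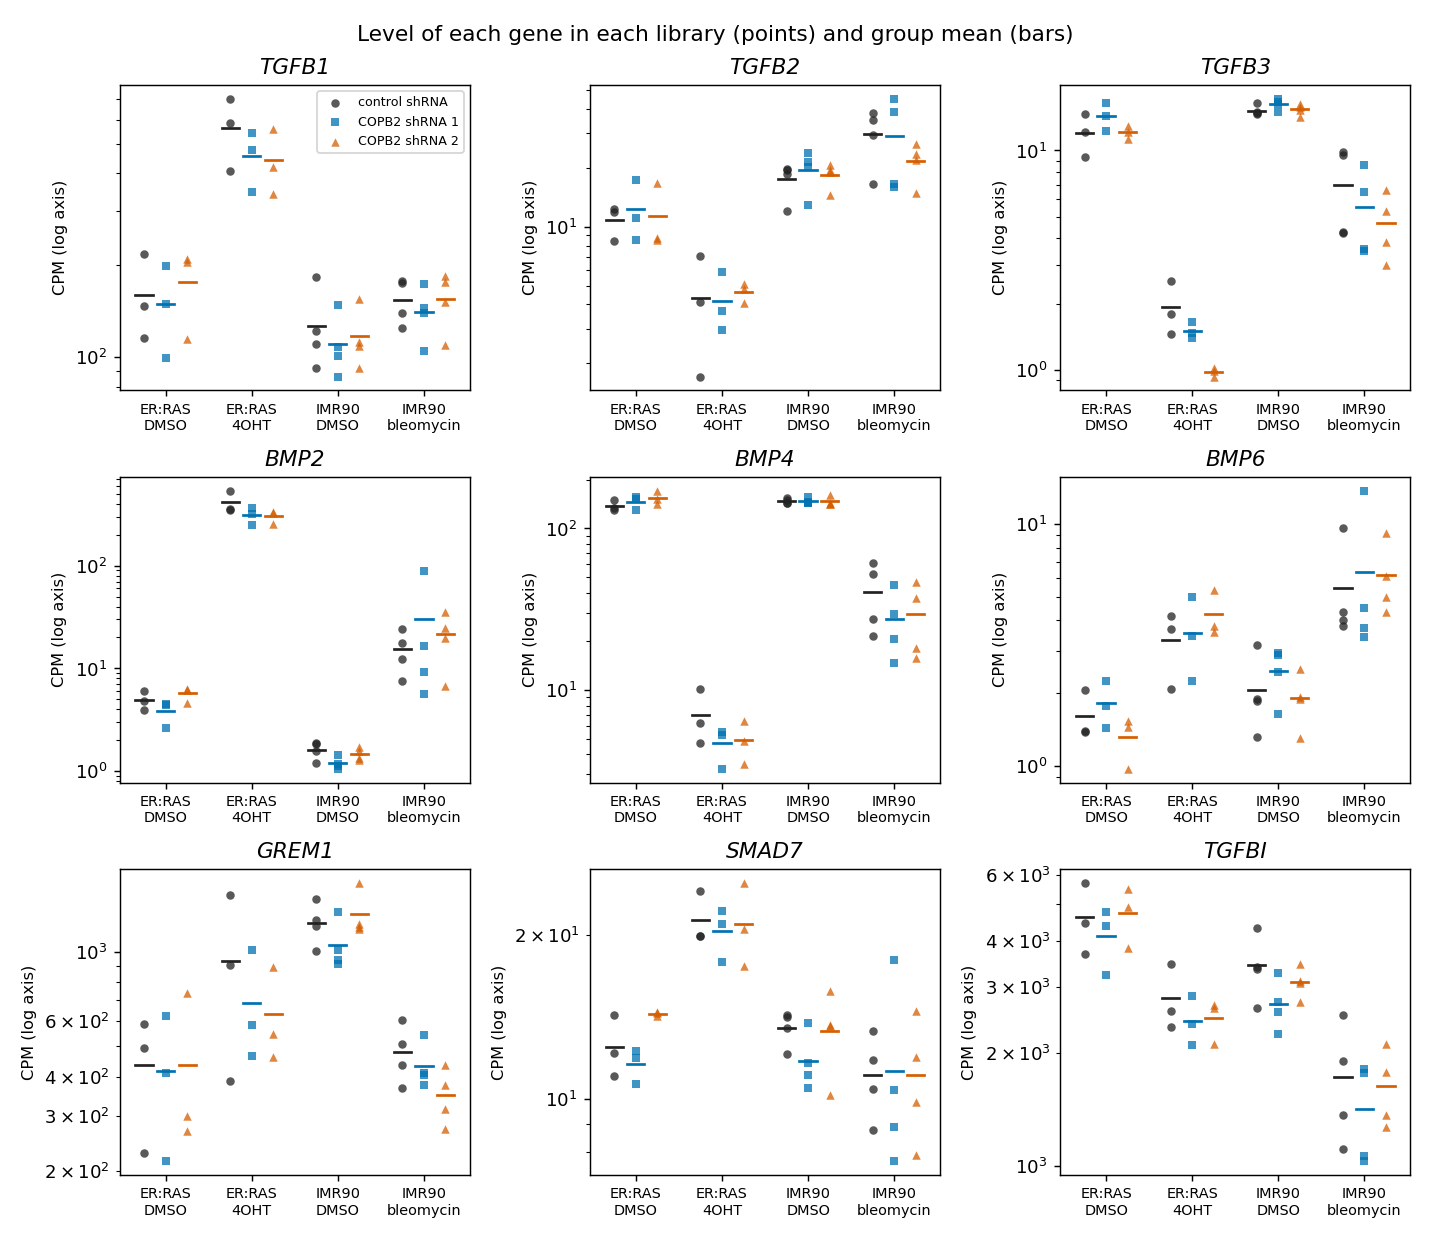
Level of each gene in CPM on a log axis, 1 point per library, by cell line and treatment. Black circles are control shRNA, blue squares COPB2 shRNA 1 and orange triangles COPB2 shRNA 2, and bars are group means. BMP2 stands at 246 to 531 CPM in all 9 libraries with 4OHT and at 6.36 CPM or less in all 9 ER:RAS libraries with DMSO.

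The comparison of 4OHT with DMSO asked how OIS altered these genes. With the control shRNA, 7 of 9 members passed the test (3 higher, 4 lower), where 35.7% of all 14297 genes tested did (15.5% higher and 20.2% lower). BMP2 rose 78.1-fold and TGFB1 3.29-fold, while BMP4 fell 21.3-fold, TGFB3 6.55-fold, TGFB2 2.65-fold and TGFBI 1.76-fold. SMAD7 rose 1.61-fold. The median log2 fold change of the 9 members was 0.68, beside -0.08 over all genes tested. Tests are edgeR quasi-likelihood F-tests with Benjamini-Hochberg adjustment over all genes, called at an adjusted p-value under 0.05.

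TGFB1, the most abundant of the TGF-β isoforms and the one most often linked to fibrosis, was at 147, 218 and 115 CPM with DMSO and at 701, 583 and 406 CPM with 4OHT. Every library with 4OHT was above every library with DMSO, with a log2 fold change of 1.72 (SE 0.30, edgeR adjusted p = 0.00029). TGFB2, an isoform studied in development and in the eye, was at 11.8, 8.43 and 12.3 CPM with DMSO and at 1.71, 4.10 and 7.10 CPM with 4OHT. These groups did not overlap either, but the 4OHT libraries spread widely, and the log2 fold change was -1.41 (SE 0.49, edgeR adjusted p = 0.034). Without replicate 1 of the 4OHT libraries it was -0.99 (adjusted p = 0.11), and the call was also lost without 4OHT replicate 2 (0.096), DMSO replicate 1 (0.083) or DMSO replicate 3 (0.090). TGFB3 was at 12.1, 14.6 and 9.38 CPM with DMSO and at 1.81, 1.45 and 2.53 CPM with 4OHT. Its log2 fold change was -2.71 (SE 0.25, edgeR adjusted p = 9.4e-07).

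On a scale per kilobase of the longest annotated transcript, which allows genes to be set side by side, TGFB1 was at 57.6 ± 18.9 CPM per kb (SD, n = 3) in uninduced ER:RAS cells, TGFB3 at 3.51 ± 0.77 and TGFB2 at 1.85 ± 0.36. After 4OHT the levels were 203 ± 53.4, 0.56 ± 0.16 and 0.73 ± 0.46 CPM per kb. TGFB1 was thus the leading isoform in both states by a wide margin. TGFB3 lay above TGFB2 with DMSO, and after 4OHT the spreads of TGFB2 and TGFB3 overlapped.

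BMP2 and BMP4, close relatives that share receptors, moved in opposite directions. BMP2 was at 6.01, 3.93 and 4.86 CPM with DMSO and at 350, 356 and 531 CPM with 4OHT. This was the largest change among the members, with a log2 fold change of 6.29 (SE 0.35, edgeR adjusted p = 4.5e-09). BMP4 was at 134, 150 and 130 CPM with DMSO and at 10.1, 6.21 and 4.69 CPM with 4OHT, a log2 fold change of -4.41 (SE 0.28, edgeR adjusted p = 1.4e-08). Per kilobase, BMP4 stood at 71.3 ± 5.53 and BMP2 at 1.39 ± 0.29 CPM per kb with DMSO (SD, n = 3), and at 3.63 ± 1.45 and 116 ± 29.1 CPM per kb with 4OHT, so that the order of both ligands was the opposite after induction. BMP6, which is known from iron control in the liver, was at 1.38, 1.39 and 2.07 CPM with DMSO and at 2.08, 3.70 and 4.18 CPM with 4OHT. The lowest 4OHT value lay just above the highest DMSO value, and the log2 fold change of 0.95 (SE 0.37, edgeR adjusted p = 0.060) missed the threshold. With DESeq2 size factors, under which the median gene moved from -0.08 to 0.04, it was 1.07 and was called (adjusted p = 0.028), as it was without 4OHT replicate 1 (1.24, adjusted p = 0.017) or DMSO replicate 3 (1.25, adjusted p = 0.033).

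GREM1, which binds BMP2 and BMP4 outside the cell and keeps them from their receptors, spread widely. It was at 494, 229 and 589 CPM with DMSO and at 387, 903 and 1516 CPM with 4OHT. The groups overlapped, and the log2 fold change of 1.01 (SE 0.60, edgeR adjusted p = 0.22) was not called. SMAD7, which is induced by both TGF-β and BMP signals and blocks their receptors, was at 12.1, 14.3 and 11 CPM with DMSO and at 19.9, 19.9 and 24.1 CPM with 4OHT, a log2 fold change of 0.68 (SE 0.20, edgeR adjusted p = 0.016). The call was lost after the adjustment for GC content and length described below (adjusted p = 0.11). TGFBI, a secreted matrix protein named for its induction by TGF-β, was the most abundant member, at 4456, 5697 and 3685 CPM with DMSO and at 3473, 2346 and 2588 CPM with 4OHT. It fell while TGFB1 transcripts rose, with a log2 fold change of -0.81 (SE 0.20, edgeR adjusted p = 0.0055), and the call was lost without replicate 2 of the 4OHT (0.069) or of the DMSO libraries (0.062).

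The same comparison was made in libraries that carry the COPB2 shRNAs, which share no library with the control arm. With COPB2 shRNA 1, 7 of 9 members were called (36.9% of all genes tested), and with COPB2 shRNA 2 also 7 of 9 (36.9%). In all 3 arms TGFB1 and BMP2 rose and TGFB2, TGFB3, BMP4 and TGFBI fell. The log2 fold changes of BMP2 were 6.24 and 5.66, those of BMP4 -5.06 and -5.06, those of TGFB3 -3.31 and -3.69, and those of TGFB1 1.53 and 1.25, with shRNA 1 and shRNA 2 in this order. TGFB2 changed by -1.63 and -1.37. It lost its call with shRNA 1 without 4OHT replicate 1 (adjusted p = 0.058), 4OHT replicate 2 (0.072) or DMSO replicate 3 (0.070), and with shRNA 2 without 4OHT replicate 1 (0.090), 2 (0.11) or 3 (0.066) or DMSO replicate 3 (-0.90, 0.16). BMP6 was called with shRNA 2 (log2 fold change 1.60, adjusted p = 0.0036) and missed the threshold with shRNA 1 (0.89, adjusted p = 0.073), where the fit with replicate number as a block called it (0.87, adjusted p = 0.031), as did the fit without 4OHT replicate 2 (1.19, adjusted p = 0.024). SMAD7 was called with shRNA 1 (0.73, adjusted p = 0.010) and not with shRNA 2 (0.48, adjusted p = 0.080), where the block again gave a call (0.47, adjusted p = 0.039), as did leaving out 4OHT replicate 2 (0.65, adjusted p = 0.032). GREM1 was called in no arm (0.65 and 0.47).

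**Figure D2:**
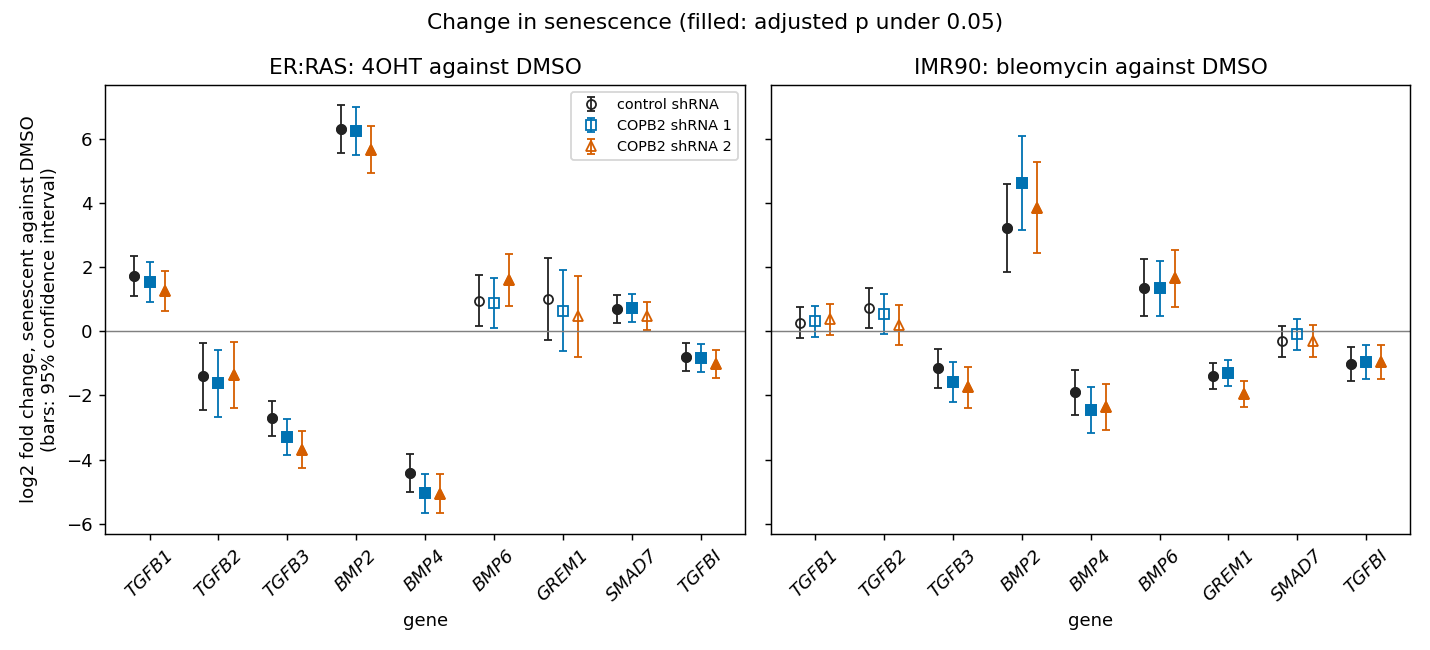
Log2 fold change of each gene in OIS (left) and after bleomycin (right), separately for the 3 shRNAs, with 95% confidence intervals of the edgeR fit. Filled symbols passed an adjusted p-value of 0.05. BMP2 lies above 0 and BMP4, TGFB3 and TGFBI lie below 0 in all 6 comparisons, while TGFB1 rose in OIS alone and GREM1 fell with bleomycin alone among the calls.

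The comparison of bleomycin with DMSO asked the same of therapy-induced senescence. With the control shRNA, 6 of 9 members were called (2 higher, 4 lower), where 31.2% of all 14783 genes tested were (15.4% higher and 15.8% lower). BMP2 rose 9.25-fold and BMP6 2.56-fold, and BMP4 fell 3.74-fold, GREM1 2.63-fold, TGFB3 2.23-fold and TGFBI 2.03-fold. The median log2 fold change of the 9 members was -0.31, beside -0.01 over all genes tested.

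Among the TGF-β isoforms, TGFB1 was at 183, 110, 91.8 and 122 CPM with DMSO and at 177, 175, 125 and 139 CPM with bleomycin. These groups overlapped, with a log2 fold change of 0.26 (95% interval -0.23 to 0.74, adjusted p = 0.45, edgeR). TGFB2 was at 12, 19.8, 19.4 and 18.5 CPM with DMSO and at 16.5, 34.9, 29.2 and 38 CPM with bleomycin. Its log2 fold change of 0.72 (SE 0.30, edgeR adjusted p = 0.074) missed the threshold, and without bleomycin replicate 1 it was 0.94 (adjusted p = 0.031). TGFB3 was at 15, 16.4, 14.6 and 14.8 CPM with DMSO and at 4.26, 9.52, 4.20 and 9.85 CPM with bleomycin, a log2 fold change of -1.16 (SE 0.30, edgeR adjusted p = 0.0047). Every bleomycin library was below every DMSO library.

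BMP2 was at 1.20, 1.88, 1.57 and 1.84 CPM with DMSO and at 17.6, 7.63, 12.3 and 24.2 CPM with bleomycin, a log2 fold change of 3.21 (SE 0.66, edgeR adjusted p = 0.00074). BMP4 was at 155, 144, 144 and 150 CPM with DMSO and at 21.7, 61.0, 27.6 and 52.4 CPM with bleomycin. Its log2 fold change was -1.90 (SE 0.34, edgeR adjusted p = 0.00018). Unlike in OIS, BMP4 kept a higher level per kilobase (21.05 ± 9.83 CPM per kb, SD, n = 4) than BMP2 (4.35 ± 2.01). BMP6 was at 1.85, 3.17, 1.321 and 1.90 CPM with DMSO and at 3.78, 4.01, 4.31 and 9.65 CPM with bleomycin. The highest value came from replicate 4, and the log2 fold change of 1.36 (SE 0.42, edgeR adjusted p = 0.018) became 0.96 (adjusted p = 0.089) without it; the call was also lost without DMSO replicate 3 (adjusted p = 0.052).

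GREM1 was at 1002, 1208, 1470 and 1258 CPM with DMSO and at 437, 368, 509 and 608 CPM with bleomycin. Every bleomycin library was below every DMSO library, with a log2 fold change of -1.40 (SE 0.19, edgeR adjusted p = 1.1e-05). SMAD7 was at 12.1, 14.2, 13.5 and 14.1 CPM with DMSO and at 11.8, 8.77, 10.4 and 13.3 CPM with bleomycin, and its log2 fold change of -0.31 (95% interval -0.81 to 0.18) was not called. TGFBI was at 4335, 3353, 2638 and 3405 CPM with DMSO and at 1364, 1907, 1110 and 2524 CPM with bleomycin, a log2 fold change of -1.02 (SE 0.25, edgeR adjusted p = 0.0036).

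With COPB2 shRNA 1 (35.2% of all genes tested called) and COPB2 shRNA 2 (40% called), 6 of 9 members passed in each, and they were the same 6 genes in the same direction. BMP2 changed by 4.62 and 3.85 on the log2 scale, BMP4 by -2.46 and -2.37, GREM1 by -1.31 and -1.94, TGFB3 by -1.58 and -1.75, BMP6 by 1.34 and 1.65 and TGFBI by -0.96 and -0.96. With shRNA 1 the bleomycin library of replicate 4 held 88.9 CPM of BMP2, where the other 3 held 5.64 to 16.5 CPM, and 13.7 CPM of BMP6, where the others held 3.40 to 4.51 CPM. Without it BMP2 changed by 3.06 (adjusted p = 2.4e-05) and BMP6 by 0.61 (adjusted p = 0.19), and BMP6 was also no longer called without DMSO replicate 4 (adjusted p = 0.054). Replicate 4 was also the highest bleomycin library in BMP2 with the control shRNA (24.2 CPM) and shRNA 2 (35.7 CPM), as in BMP6 (9.65 and 9.22 CPM). For TGFB3, GREM1, SMAD7 and TGFBI it was the highest in all 3 arms too, but not for TGFB1, TGFB2 or BMP4. The cause was not tested. In all 3 arms of both models, 4 of 9 members moved the same way: BMP2 rose, and TGFB3, BMP4 and TGFBI fell.

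The difference between both models was tested in a fit of all 42 libraries, with the control shRNA. It was called for 7 of 9 members, where 20.3% of 15299 genes were. The rise of BMP2 was larger in OIS than with bleomycin by 3.14 on the log2 scale (SE 0.79, edgeR adjusted p = 0.0037). The falls of BMP4 (difference -2.43, SE 0.48, adjusted p = 0.00029) and TGFB3 (-1.51, SE 0.41, adjusted p = 0.0069) were deeper in OIS. TGFB1 differed by 1.53 (SE 0.40, edgeR adjusted p = 0.0048), SMAD7 by 1.06 (SE 0.31, edgeR adjusted p = 0.012) and TGFB2 by -2.09 (SE 0.53, edgeR adjusted p = 0.0043). GREM1 differed by 2.46 (SE 0.54, edgeR adjusted p = 0.00094), its fall with bleomycin standing beside an increase in OIS that did not pass the test on its own. BMP6 (-0.35, 95% interval -1.55 to 0.84) and TGFBI (0.27, 95% interval -0.44 to 0.99) showed no call. Cell line and inducer differ between the models together and cannot be told apart in these values.

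Before any inducer, the lines themselves were compared. In uninduced ER:RAS cells against growing IMR90 cells, 0 of 9 members were called by edgeR (0.346% of all genes were), 2 had an unadjusted p-value under 0.05 and 1 was called by the DESeq2 Wald test. BMP2 was higher in every ER:RAS library than in every IMR90 library, with a log2 fold change of 1.60 (95% interval 0.45 to 2.75, adjusted p = 0.27). GREM1 was lower in every ER:RAS library, with a log2 fold change of -1.50 (95% interval -2.29 to -0.71, adjusted p = 0.093), and was the gene called by DESeq2 (-1.49, adjusted p = 0.015).

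The question of the study's design was what COPB2 knockdown does to these cells. Each COPB2 shRNA was set against the control shRNA within uninduced, OIS, growing and bleomycin-treated cells. No member was called by edgeR in any of these 8 comparisons (72 values), and 3 of the 72 had an unadjusted p-value under 0.05. The share of all genes called was small as well. With shRNA 1 it was 0.00699% in uninduced ER:RAS, 0.14% in OIS, 0.00676% in growing IMR90 and 0.00676% in bleomycin-treated cells, and with shRNA 2 it was 0.00699%, 0.224%, 0.00676% and 0.0744%. In uninduced and growing cells with either shRNA, and after bleomycin with shRNA 1, the only gene called was the target COPB2 itself. The DESeq2 Wald test also called 0 members. Counted together with the interactions described below (108 values), 4 had an unadjusted edgeR p-value under 0.05 in the main fit. With the replicate number as a block there were 16, of which 0 were called, so that smaller knockdown effects are not excluded.

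TGFB3 came nearest to a call. In OIS with shRNA 2 it was at 0.99, 1.02 and 0.94 CPM, below the 1.81, 1.45 and 2.53 CPM of the control shRNA, a log2 fold change of -0.996 (95% interval -1.55 to -0.45, adjusted p = 0.27). With shRNA 1 it was at 1.41, 1.48 and 1.66 CPM, overlapping the control, with a log2 fold change of -0.37 (95% interval -0.90 to 0.17). BMP4 in OIS changed by -0.59 with shRNA 1 (95% interval -1.12 to -0.05) and by -0.52 with shRNA 2 (95% interval -1.05 to 0.02). BMP2 in OIS changed by -0.43 and -0.46, and its libraries did not overlap those of the control with shRNA 2. GREM1 in bleomycin-treated cells changed by -0.45 with shRNA 2 (95% interval -0.84 to -0.06). The 72 log2 fold changes reached from -0.996 to 0.97. The highest was BMP2 with shRNA 1 after bleomycin, which became -0.58 without the bleomycin library of replicate 4 with shRNA 1 that held 88.9 CPM. The 95% interval lay within 1 log2 unit of no change in 45 of them, so larger changes remain possible in the other comparisons.

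Whether knockdown altered the response to senescence was tested as an interaction. No member was called for either shRNA in either model, where 0% of all genes were called. Some intervals were wide, so large interactions are not excluded. The largest estimate was BMP2 with shRNA 1 and bleomycin (1.41, 95% interval -0.46 to 3.27), which ran from -0.16 to 1.73 with 1 library left out. GREM1 with shRNA 2 in OIS was at -0.54 (95% interval -2.33 to 1.25). The only member with an unadjusted p-value under 0.05 was TGFB3 with shRNA 2 in OIS (-0.98, 95% interval -1.72 to -0.24), and the DESeq2 Wald test called 0 members.

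**Figure D3:**
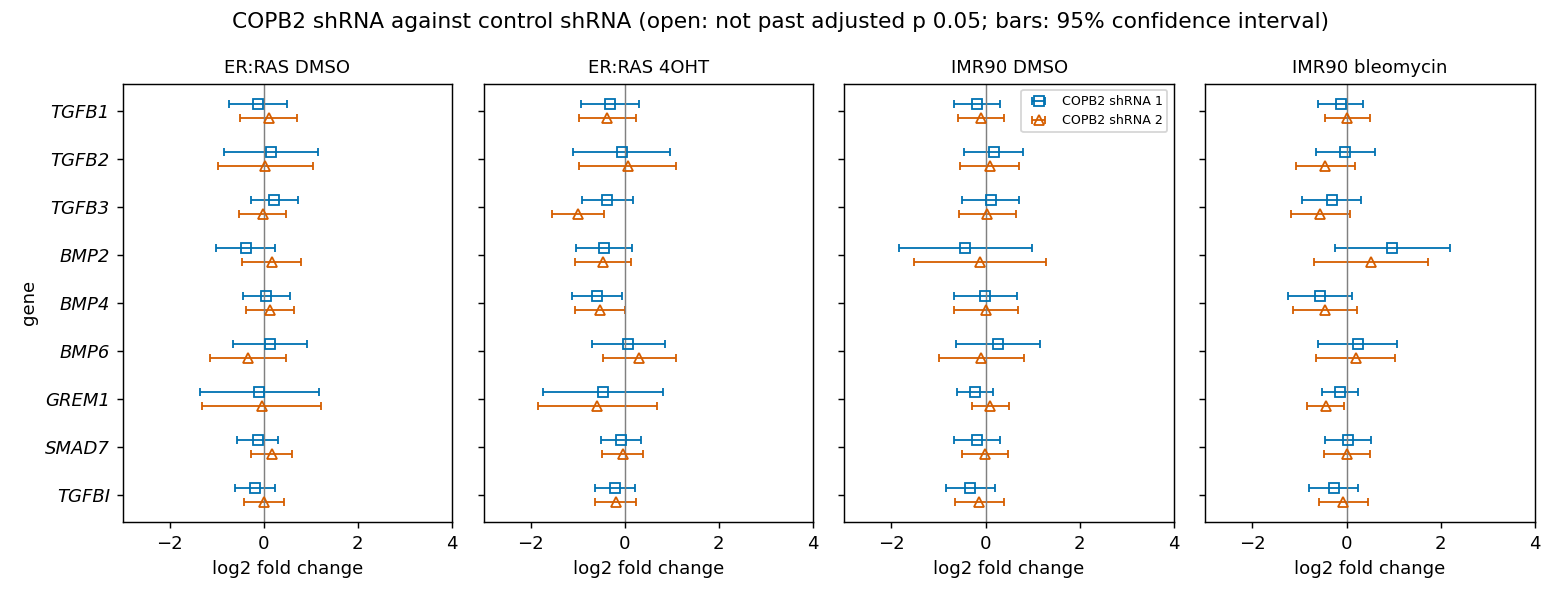
Log2 fold change of each gene with COPB2 shRNA 1 (blue squares) and COPB2 shRNA 2 (orange triangles) against the control shRNA in the 4 cell states, with 95% confidence intervals. All symbols are open because none passed the test. Most intervals include 0, and the exceptions are TGFB3 with shRNA 2 and BMP4 with shRNA 1 in OIS and GREM1 with shRNA 2 after bleomycin.

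Libraries of the same group differed along a common axis. The first principal component of the deviations from the group means held 74.7% of their variance over 10635 genes. It followed base composition: a GC index, the mean deviation of genes over 60% GC minus that of genes under 45% GC, correlated with it at r = 0.993 over 42 libraries, which share their group means. The members lie on both sides of this axis. TGFB1 (63.6% GC) deviated with the index (r = 0.912), and GREM1 (39.8% GC, with a longest transcript of 14575 bases) and TGFB2 (42.2% GC) deviated against it (r = -0.925 and -0.678). After adjusting for GC content and transcript length, a step added once the data had been seen, the rise of GREM1 in OIS was 1.15 (SE 0.17, edgeR adjusted p = 4.1e-05) with the control shRNA, 0.78 (adjusted p = 0.0011) with shRNA 1, and not called with shRNA 2. That of TGFB2 with bleomycin was 0.83 (adjusted p = 0.029).

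**Figure D4:**
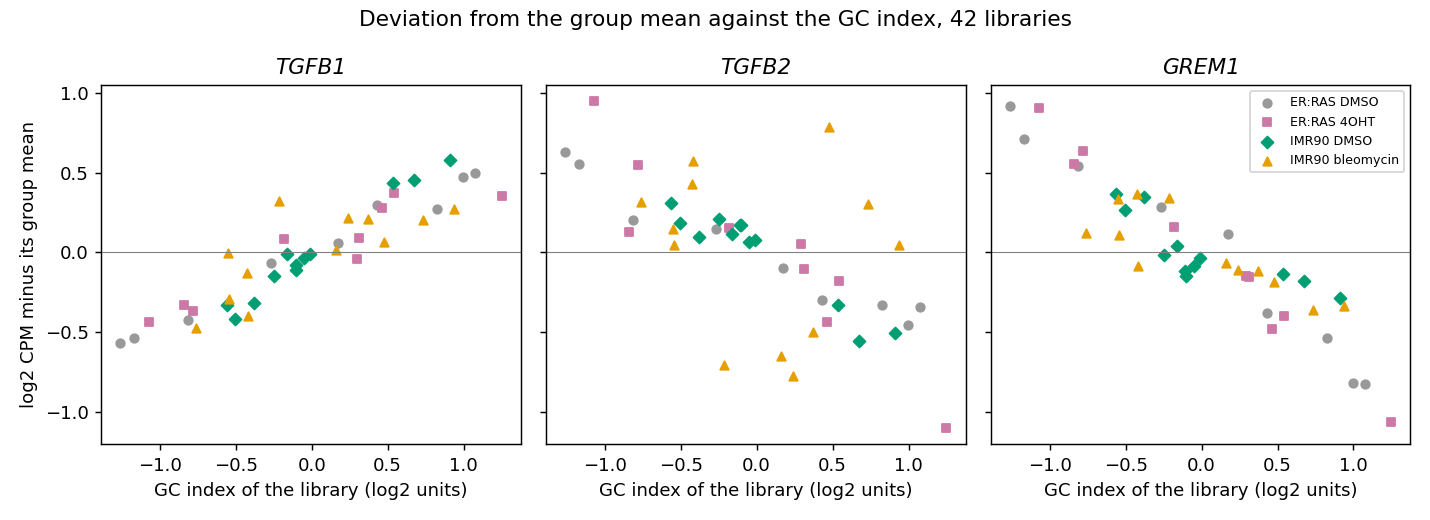
Deviation of TGFB1, TGFB2 and GREM1 from their group mean (log2 CPM) against the GC index of the library (log2 units), 1 point for each of 42 libraries, coloured by cell line and treatment. TGFB1 rises with the index, GREM1 falls with it along a narrow band, and TGFB2 falls with more scatter among the bleomycin libraries.

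Other genes of the pathway were described from lists by role, in the comparisons with the control shRNA. Their counts stand beside 35.7% of all genes called in OIS and 31.2% with bleomycin. Among other ligands, 5 of 7 tested were called in OIS (3 higher, 2 lower) and 3 of 12 with bleomycin (3 higher). INHBA, the subunit of activin A, rose from 18.4 ± 10.9 to 1430 ± 588 CPM in OIS (SD, n = 3; log2 fold change 6.17, adjusted p = 1.3e-05) and changed by 2.42 (adjusted p = 0.00084) with bleomycin. GDF15, a stress-induced ligand, rose by 3.90 in OIS and by 3.10 with bleomycin. GDF5, a ligand of joint development, fell by 6.58 on the log2 scale in OIS.

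Of the receptors, 4 of 12 tested were called in OIS (1 higher, 3 lower) and 3 of 13 with bleomycin (2 higher, 1 lower), where 35.7% and 31.2% of all genes were called, so that neither share of receptors was above that of all genes. ACVRL1, a type I receptor best known from endothelium, rose by 1.05 in OIS, where the endothelial markers TIE1 and CLDN5 were high as well (its part was not tested). TGFBR3, the accessory receptor betaglycan, changed by -2.07 and ACVR1, a BMP type I receptor, by -0.91. With bleomycin ENG, an accessory receptor, rose by 0.64 and BMPR2, the BMP type II receptor, changed by -0.82. The other antagonists held 5 calls of 11 in OIS, all lower, and 4 of 11 with bleomycin (1 higher, 3 lower). DCN, a proteoglycan that binds TGF-β and also a fibroblast marker, fell from 1583 ± 214 to 10.6 ± 2.32 CPM in OIS (log2 fold change -7.32, adjusted p = 2.7e-10) and by 2.05 on the log2 scale with bleomycin. FST, which captures activins, changed by -1.96 in OIS and by 1.42 with bleomycin. CHRDL2, a chordin-like antagonist, changed by -1.11 with bleomycin.

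Genes of latency and activation had 8 calls of 11 in OIS (4 higher, 4 lower) and 5 of 11 with bleomycin (1 higher, 4 lower). LTBP4, which tethers the latent complex to the matrix, fell in both, with log2 fold changes of -2.85 and -2.76. LRRC32, the cell-surface anchor GARP, changed by 1.06 in OIS and by -1.68 with bleomycin. In OIS the integrin subunit ITGB5 changed by 0.96 and THBS1, an activator of latent TGF-β, by -1.88. With bleomycin LTBP1 changed by 0.67. SMADs and their regulators had 7 calls of 13 in OIS (3 higher, 4 lower) and 6 of 13 with bleomycin (2 higher, 4 lower), again beside 35.7% and 31.2% of all genes. PMEPA1, a negative regulator induced by TGF-β, rose by 2.32 and 0.55, and SMAD9 changed by -1.96 and -1.34. SMAD3 changed by -1.66 and the ubiquitin ligase SMURF1 by 0.86 in OIS, and SMURF2 changed by 1.40 and the inhibitory SMAD6 by -1.54 with bleomycin.

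Among textbook TGF-β targets, ELN, which encodes elastin, changed by -6.15 and -4.52, and COL3A1, a fibrillar collagen that is also among the fibroblast markers, by -4.79 and -2.32, in OIS and with bleomycin in this order. COMP, a cartilage matrix protein, was at 0.41 ± 0.22 CPM with DMSO and 2.05 ± 0.71 CPM with bleomycin (SD, n = 4; log2 fold change 2.26, edgeR adjusted p = 0.00015), and was named after its values were seen. Of 8 BMP targets tested, 6 were called in OIS (3 higher, 3 lower) and 4 with bleomycin (4 higher), beside 35.7% and 31.2% of all genes. HEY1 rose from 0.63 ± 0.32 to 38.9 ± 4.86 CPM in OIS (log2 fold change 5.86, adjusted p = 7.8e-09) and MSX1 changed by 2.28, while ATOH8 changed by -4.41 and ID2 by -2.98. With bleomycin ID3 changed by 1.80 and MSX2 by 1.01. HEY1 also answers Notch signals.

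**Figure D5:**
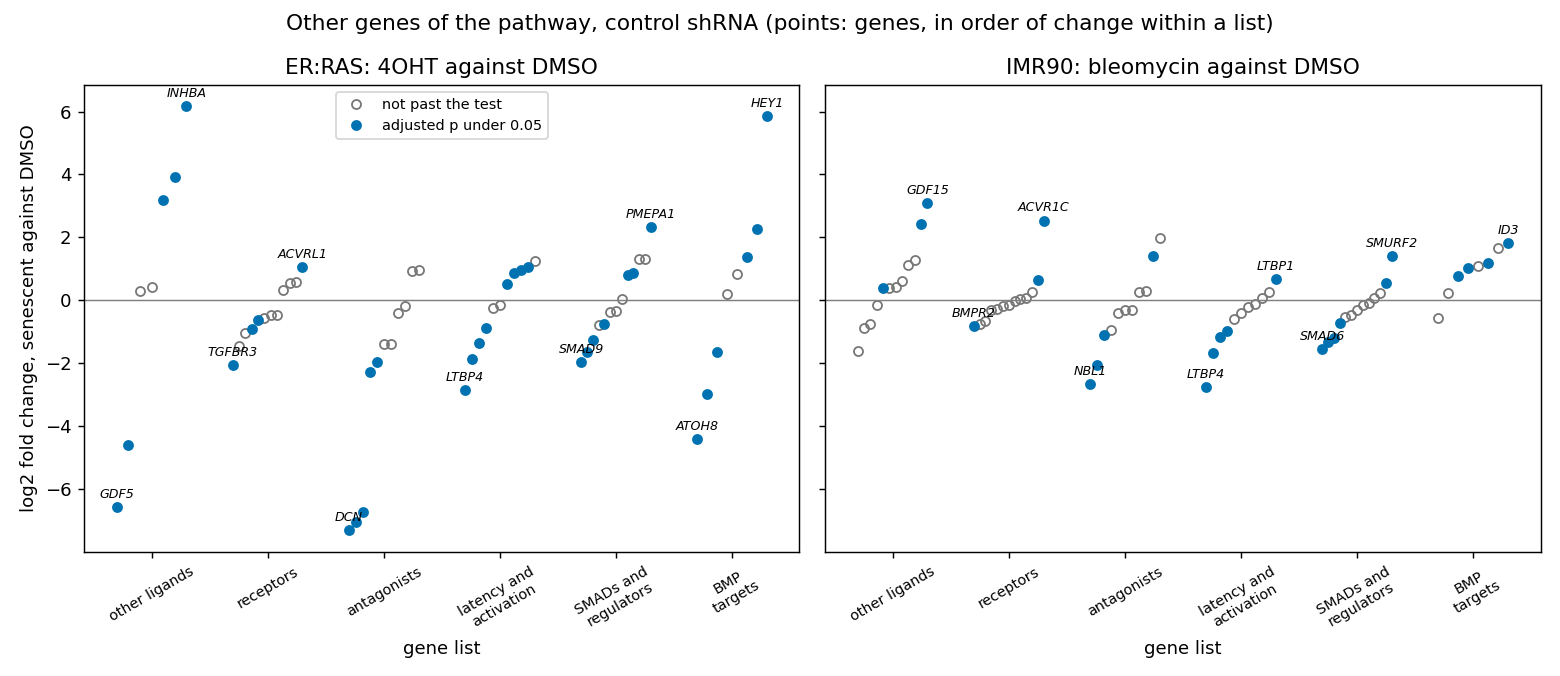
Log2 fold change of the other pathway genes in OIS (left) and after bleomycin (right), control shRNA, 1 point per gene in order of change within each list. Filled points passed an adjusted p-value of 0.05. INHBA at 6.17 and HEY1 at 5.86 are the highest points in OIS and DCN at -7.32 is the lowest.

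For each member the genes with the most similar levels over all 42 libraries were listed, by Pearson's r of log2 CPM among 12949 genes. The libraries share groups, so that r mostly reflects the same group differences. TGFB3 and BMP4 both had C1S, a complement protease, among their 3 closest genes (r = 0.979 and 0.991). The closest gene to BMP2 was DUSP4, a MAP kinase phosphatase (r = 0.986), followed by CDCP1 (0.983) and the collagenase MMP1 (0.983). The closest gene to TGFB1 was GPI (0.993), to TGFB2 CRIM1 (0.970), to GREM1 SESTD1 (0.901), to SMAD7 RIPOR3 (0.932), to TGFBI DENND2A (0.971) and to BMP6 PRKCH (0.875). Between members, TGFB3 and BMP4 had the highest r (0.967) and BMP2 and BMP4 the lowest (-0.944). Within groups, where only the differences between libraries of a group count, the strongest of the 36 pairs were BMP2 with SMAD7 (r = 0.789), TGFB1 with GREM1 (-0.785), TGFB1 with TGFB2 (-0.751) and TGFB3 with TGFBI (0.751). Without the bleomycin library of replicate 4 with COPB2 shRNA 1, which was high in BMP2, BMP6 and SMAD7 (17.99 CPM, the others 7.69 to 10.4), these were 0.645, -0.834, -0.742 and 0.730 over 41 libraries. The bleomycin libraries of replicate 4 in the other arms, also the highest of their groups in BMP2, BMP6 and SMAD7, were kept. TGFB1 and its pair of partners lie on opposite sides of the GC index described above.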

How the data were processed

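Poly(A) RNA of 42 libraries was sequenced by the authors. The deposited values are whole-number counts of reads for each gene symbol, which the authors left unnormalized. The submitters' processing notes name hg38, DRAGEN, STAR 2.7.8a and DESeq2 1.32.0, whereas the study's methods name Tophat, hg19 and directional single-end libraries, and the counting mode is not given in the sources used here. Gene positions are therefore credited to RefSeq (GRCh38.p14), and GC content and transcript length to GENCODE annotation.

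Every library was placed in 1 of 12 groups from its label. Counts were filtered with filterByExpr, scaled with TMM and tested in edgeR 4.0.16 under R 4.3.3 with robust two-sided quasi-likelihood F-tests, in 1 fit per line (18 and 24 libraries) and 1 fit of all 42 for comparisons between lines, with Benjamini-Hochberg adjustment over all genes tested and calls under 0.05. Standard errors are the absolute log2 fold change over the square root of F. CPM values use a prior count of 2 only where a log2 level of a single library enters a correlation. The procedure was also run on counts simulated from the means, dispersions and sizes of these libraries. They were drawn independently, without the shared GC axis, so that run cannot show how the tests behave under it. Total counts ran from 13148194 to 23597310 per library, which carry no molecular identifiers.

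The members and the gene lists were chosen with earlier results of these data known. From the list of TGF-β targets 1 gene is not reported here, so that no count or median of that list is given and its other genes are described singly. Named are all members, COPB2 and HRAS as checks of the labels, marker genes and, from each pathway list in each senescence comparison with the control shRNA, the 2 called genes with the largest rise and the 2 with the largest fall among those with a mean of at least 5 CPM in the higher group, and for each member up to 3 genes of most similar level among genes with a mean of at least 1 CPM. COMP was named outside this rule, with a mean under 5 CPM in both groups given. Alternatives were DESeq2 size factors, no filter, the Wald test of DESeq2 1.42.0, only the groups compared, the replicate number as a block and leaving out each library. A lowess correction for GC content and length (span 0.3) was added after seeing the data. Replicate numbers were checked for pairing by the correlation of same-numbered libraries' deviations from their group means: every pair exceeded 0.1 in 6 of 14 comparisons (both COPB2 shRNAs in OIS against DMSO, in growing IMR90 and in bleomycin-treated cells against the control shRNA), and the correlations ran from -0.813 to 0.950 overall.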

Additional observations from a re-analysis of the deposited data

Results flagged for a closer look

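Among the 54 sets of 4 IMR90 libraries (9 genes in 6 groups), 7 held a library flagged by Dixon's criterion. It marks a gap to the nearest neighbour that is large for the range of the set. In independent normal sets chance flags about 1 in 20. These 54 sets share the same libraries, so the count cannot be read as an excess over chance. In the bleomycin libraries with COPB2 shRNA 1, replicate 4 stood at 88.9 CPM of BMP2 (others 5.64 to 16.5) and at 13.7 CPM of BMP6 (others 3.40 to 4.51). With the control shRNA, bleomycin replicate 4 stood at 9.65 CPM of BMP6 (others 3.78 to 4.31). Among growing IMR90 libraries, replicate 1 with the control shRNA was low in TGFB2 at 12 CPM (others 18.5 to 19.8). Replicate 3 was high in BMP4 at 156 CPM with COPB2 shRNA 1 (others 143 to 145) and at 162 CPM with COPB2 shRNA 2 (others 142 to 145), and in GREM1 at 1650 CPM with COPB2 shRNA 2 (others 1183 to 1223).

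The response to OIS differed from that to bleomycin, control shRNA, by a test of the difference itself for 7 members: TGFB1 (1.53 on the log2 scale), TGFB2 (-2.09), TGFB3 (-1.51), BMP2 (3.14), BMP4 (-2.43), GREM1 (2.46) and SMAD7 (1.06), with edgeR adjusted p-values between 0.00029 and 0.012.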

How the results depend on the processing

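No value changed direction past a call under any alternative. With only the groups compared in the fit, 4 instead of 7 members were called in OIS with the control shRNA, as TGFB2 (adjusted p = 0.10), SMAD7 (0.18) and TGFBI (0.13) lost their calls; this fit holds 6 libraries instead of 18 and calls 2911 instead of 5098 genes. In uninduced ER:RAS against growing IMR90 cells, where no member was called, the block for replicate number called 2 (BMP2 at 1.85, adjusted p = 0.034, and GREM1 at -1.50, adjusted p = 0.0024) and the DESeq2 Wald test called 1; the cause was not tested. With shRNA 2 in OIS, the block with the GC and length correction called 1 member, GREM1 (-0.58, adjusted p = 0.018), and no other alternative called a member for COPB2 knockdown. With 1 library left out, the number called ran from 5 to 7 in OIS with the control shRNA, 6 to 7 with either COPB2 shRNA, 5 to 7, 5 to 6 and 6 to 6 with bleomycin for the control shRNA, shRNA 1 and shRNA 2, 7 to 7 between the models and 0 to 0 elsewhere.

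In OIS with the control shRNA the block called 9 members (BMP6 0.99, adjusted p = 0.018; GREM1 0.98, adjusted p = 0.022) and 7274 genes; with bleomycin it called 7 (TGFB2 0.71, adjusted p = 0.0077) and 6050 genes. Same-numbered libraries there correlated from -0.813 to 0.664 and from -0.703 to 0.759 in their deviations from the group means. Most of the variance of these deviations (74.7%) lay on the axis that followed base composition. The check therefore cannot decide whether the numbers pair these libraries. TGFB1 with bleomycin was called with the block for shRNA 1 (0.33, adjusted p = 0.038) and shRNA 2 (0.37, adjusted p = 0.019). In the paired comparisons the block changed no call of a member other than BMP6 and SMAD7 in OIS, given above. SMAD7 between the models was 0.99 (adjusted p = 0.081) after the GC and length correction. With DESeq2 size factors the calls over all genes in OIS were 2414 higher and 2487 lower, against 2210 and 2888. Of all values for single members, 1224 of 1260 under alternative settings and 1553 of 1575 with a library left out kept their side of the threshold. Most of these values come from comparisons in which no member was called, so the shares say little about the calls in senescence. Levels near 1 CPM (TGFB3 with 4OHT, BMP6, and BMP2 in growing IMR90 cells) rest on few reads, and 3 libraries per group limit what knockdown effects can be seen.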

Other observations

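Ordered per kilobase of the longest transcript, the control-shRNA levels ran from TGFBI (990 ± 218 CPM per kb, SD, n = 3), BMP4 (71.3 ± 5.53) and TGFB1 (57.6 ± 18.9) to BMP2 (1.39 ± 0.29) and BMP6 (0.43 ± 0.10) in uninduced ER:RAS cells, with GREM1 at 29.98 ± 12.8. After 4OHT they ran from TGFBI (601 ± 127), TGFB1 (203 ± 53.4) and BMP2 (116 ± 29.1) to TGFB2 (0.73 ± 0.46) and TGFB3 (0.56 ± 0.16), with GREM1 at 64.2 ± 38.8. In growing IMR90 cells GREM1 (84.7 ± 13.2, n = 4) and BMP4 (76.9 ± 2.69) stood within 1 SD of GREM1 of each other, and after bleomycin GREM1 (33 ± 7.04) and BMP4 (21.05 ± 9.83) were both below TGFB1 (55.4 ± 9.45). SMAD7 lay between 3.31 and 6.37 CPM per kb in these 4 groups.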
